A study of Mus musculus with 16 samples.

Results

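Genes of a trans-synaptic adhesion system were followed in the E15.5 mouse cerebral cortex, in UMI RNA-seq libraries of 7 ctrl, 4 cKO and 4 dKO mice. They are 4 neurexophilins (*Nxph1*, *Nxph2*, *Nxph3*, *Nxph4*), 2 neurexins (*Nrxn2*, *Nrxn3*) and 3 neuroligins (*Nlgn1*, *Nlgn2*, *Nlgn3*), and these 9 are among 51912 genes listed in the count files. *Nxph1* was chosen by its rise in cKO versus ctrl in these same mice, and the other 8 genes were taken as members of its family or of the families it works with. The values of *Nxph1* in cKO versus ctrl, its interval and its calls at a threshold among them, are therefore a description and not a test. The cKO genotype is *hGFAP-Cre* *Casc5* conditional KO (*Casc5* is *Knl1*, a kinetochore gene), and dKO is the *hGFAP-Cre* *Casc5/Trp53* double conditional KO. Of the ctrl mice, 5 were *Casc5* wild type and 2, T4 and T5, were *Casc5* heterozygous. The *hGFAP-Cre* transgene acts in cortical neural progenitor cells and their progeny, so cells that enter the cortex from elsewhere, as most interneurons do, keep intact alleles. The question was whether *Nxph1* rose alone or together with its neurexin partners.

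Neurexins are presynaptic membrane proteins, made in long α and short β forms from separate promoters, and they hold a synapse together by binding ligands across or within the cleft. Neuroligins are their classical postsynaptic partners. Neurexophilins are secreted glycoproteins that bind tightly to the extracellular part of α-neurexins, and *Nxph1* is known in the forebrain mainly from inhibitory interneurons. In the embryonic cortex these genes are transcribed before most synapses form.

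The reference promoters of 3 of the genes are shown because the results turn on *Nxph1* and *Nrxn3*, and *Nxph2* is the paralog with the next highest level per length of exon. Each is the RefSeq sequence of build GRCm38.p6 from 250 bases before to 50 bases after an annotated start, read 5′ to 3′ on the plus strand. RefSeq entries were found for 5 of the 9 genes, with 8 starts in all, and *Nrxn3* has 3 of them, of which the most downstream is shown. Capitals mark CANNTG, the E-box bound by neuronal basic helix-loop-helix factors, and GGGCGG, the GC box, on either strand. No marked motifs overlapped.

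*Nxph1*, chr6:8949769-8950068: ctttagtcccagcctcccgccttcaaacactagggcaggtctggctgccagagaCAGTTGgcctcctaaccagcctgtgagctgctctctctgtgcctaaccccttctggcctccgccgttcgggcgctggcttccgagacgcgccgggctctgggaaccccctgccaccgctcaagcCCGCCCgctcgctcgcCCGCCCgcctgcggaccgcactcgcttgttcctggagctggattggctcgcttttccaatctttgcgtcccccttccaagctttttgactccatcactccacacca

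*Nxph2*, chr2:23320996-23321295: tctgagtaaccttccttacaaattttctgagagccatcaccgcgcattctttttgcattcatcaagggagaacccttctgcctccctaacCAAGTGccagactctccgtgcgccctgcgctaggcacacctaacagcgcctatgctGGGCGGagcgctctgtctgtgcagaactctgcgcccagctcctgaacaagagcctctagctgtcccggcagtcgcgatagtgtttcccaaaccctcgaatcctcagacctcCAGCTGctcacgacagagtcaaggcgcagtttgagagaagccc

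*Nrxn3*, chr12:89812233-89812532: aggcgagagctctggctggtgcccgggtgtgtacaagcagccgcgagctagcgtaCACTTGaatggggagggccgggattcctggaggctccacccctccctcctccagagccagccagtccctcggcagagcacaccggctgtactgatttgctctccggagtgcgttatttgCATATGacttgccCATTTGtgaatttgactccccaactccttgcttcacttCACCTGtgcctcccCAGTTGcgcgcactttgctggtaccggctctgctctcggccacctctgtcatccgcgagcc

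The *Nxph1* window held 1 E-box and 2 GC boxes, that of *Nxph2* held 2 and 1, and the one shown of *Nrxn3* held 5 and 0. The *Nrxn3* windows not shown held fewer E-boxes, at 0 E-boxes and 0 GC boxes in the most upstream and 1 and 1 in the next. Whether a *Nrxn3* start serves the α or the β form was not determined. Of all 32851 RefSeq promoters of this length, 72.3% hold an E-box and 35.7% a GC box. The homeodomain core TAATTA, searched on both strands, was in none of the 8 windows and is in 5.29% of all promoters. These matches describe the letters only. The windows differed in base composition, with 64% G and C in *Nxph1*, 56% in *Nxph2* and 60.7% in the one shown of *Nrxn3*. The *Nrxn3* windows not shown had 47.3% and 47.7%. The *Nxph1* window lies inside the gene as GENCODE M21 draws it, which starts further upstream at 8948431 on chromosome 6.

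The 9 genes differ greatly in length. In GENCODE M21, *Nrxn3* (ENSMUSG00000066392, chromosome 12) spans 1612 kb, *Nlgn1* (ENSMUSG00000063887, chromosome 3) 906 kb and *Nxph1* (ENSMUSG00000046178, chromosome 6, plus strand, 8948431 to 9249032) 301 kb. The shortest are *Nxph3* (ENSMUSG00000046719, chromosome 11) with 4.73 kb and *Nxph4* (ENSMUSG00000040258, chromosome 10) with 9.09 kb. *Nrxn2* (ENSMUSG00000033768) lies on chromosome 19, *Nxph2* (ENSMUSG00000069132) on chromosome 2, *Nlgn2* (ENSMUSG00000051790) on chromosome 11 and *Nlgn3* (ENSMUSG00000031302) on chromosome X. Because reads of rRNA-depleted RNA can come from introns, levels are compared between genes per kb in 2 ways. Per kb of exon, the ctrl level was highest for *Nrxn3*, at 421 ± 57.1 CPM per kb (mean ± SD, n = 7). *Nlgn1* (145 ± 24.8 CPM per kb) and *Nxph1* (129 ± 19.0 CPM per kb) came next and lay within each other's SD. *Nrxn2* (23.3 ± 2.11 CPM per kb) and *Nlgn2* (22.4 ± 3.29 CPM per kb) were likewise close together. *Nxph2* was at 7.05 ± 1.56 CPM per kb, *Nxph4* at 4.77 ± 1.86, *Nxph3* at 2.40 ± 1.94 and *Nlgn3* at 1.67 ± 0.809 CPM per kb. Per kb of the whole gene the order changed, with *Nlgn2* first at 8.84 ± 1.30 CPM per kb, *Nrxn3* at 3.29 ± 0.447 and *Nxph1* at 2.03 ± 0.301, and *Nxph2* last at 0.225 ± 0.0499 CPM per kb. *Nxph1* stood above its 3 paralogs on both scales. CPM are library-size-scaled counts, with TMM factors computed over all 15 mice.

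Depth and batch limit what follows. Total counts ranged from 399832 to 3266227 in ctrl, from 4178461 to 8800987 in cKO and from 552186 to 5396803 in dKO, so every cKO mouse was deeper than every ctrl mouse. In counts, 3 reads are 7.50 CPM in the shallowest ctrl mouse and 0.341 CPM in the deepest cKO mouse, which covers counting error only. Batch 1 held ctrl 2, 6 and S3 with cKO 5, 7 and S2, batch 2 held ctrl S1, and batch 3 held ctrl T3, T4 and T5, cKO F3 and all dKO mice. In batch 3, ctrl T3, T4 and T5 and dKO T2 and T8 were of litter 3. Litter 4 held cKO F3 and dKO F1 and F7 but no ctrl mouse. With litter as a covariate, the mice of litter 4 therefore do not inform a fold change against ctrl. Mouse S2 had 2 libraries, whose counts were summed, and for *Nxph1* the second was lower by 2.06% and for *Nrxn3* it differed by 0.40%. In bulk cortex, fewer cells of a type and less RNA per cell cannot be told apart.

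*Nxph1* was higher in cKO than in ctrl in every mouse. Its level in ctrl was 460.1 CPM at the lowest, 612 at the median and 740.5 at the highest. In cKO mice 5, 7, S2 and F3 it was 1174, 1030.2, 796 and 894 CPM. The groups did not overlap, and the lowest cKO mouse was S2. The fitted log fold change in cKO versus ctrl (edgeR, log2 scale) was 0.65 with a standard error of 0.14, a fold of 1.57 with a 95% interval of 1.30 to 1.89. It was 0.73 without mouse S2, 0.55 without mouse 5, 0.58 within batch 1 and 0.51 with litter as a covariate. Within litter 1 the ctrl mice were at 658 and 740.5 CPM and the cKO mice at 1030.2 and 1174 CPM. Within litter 2 the ctrl mice were at 612 and 657 CPM and cKO S2 at 796 CPM. In batch 3, cKO F3 of litter 4, at 894 CPM, stood above the 3 ctrl mice of litter 3, at 460.1, 539 and 612 CPM.

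**Figure D1:**
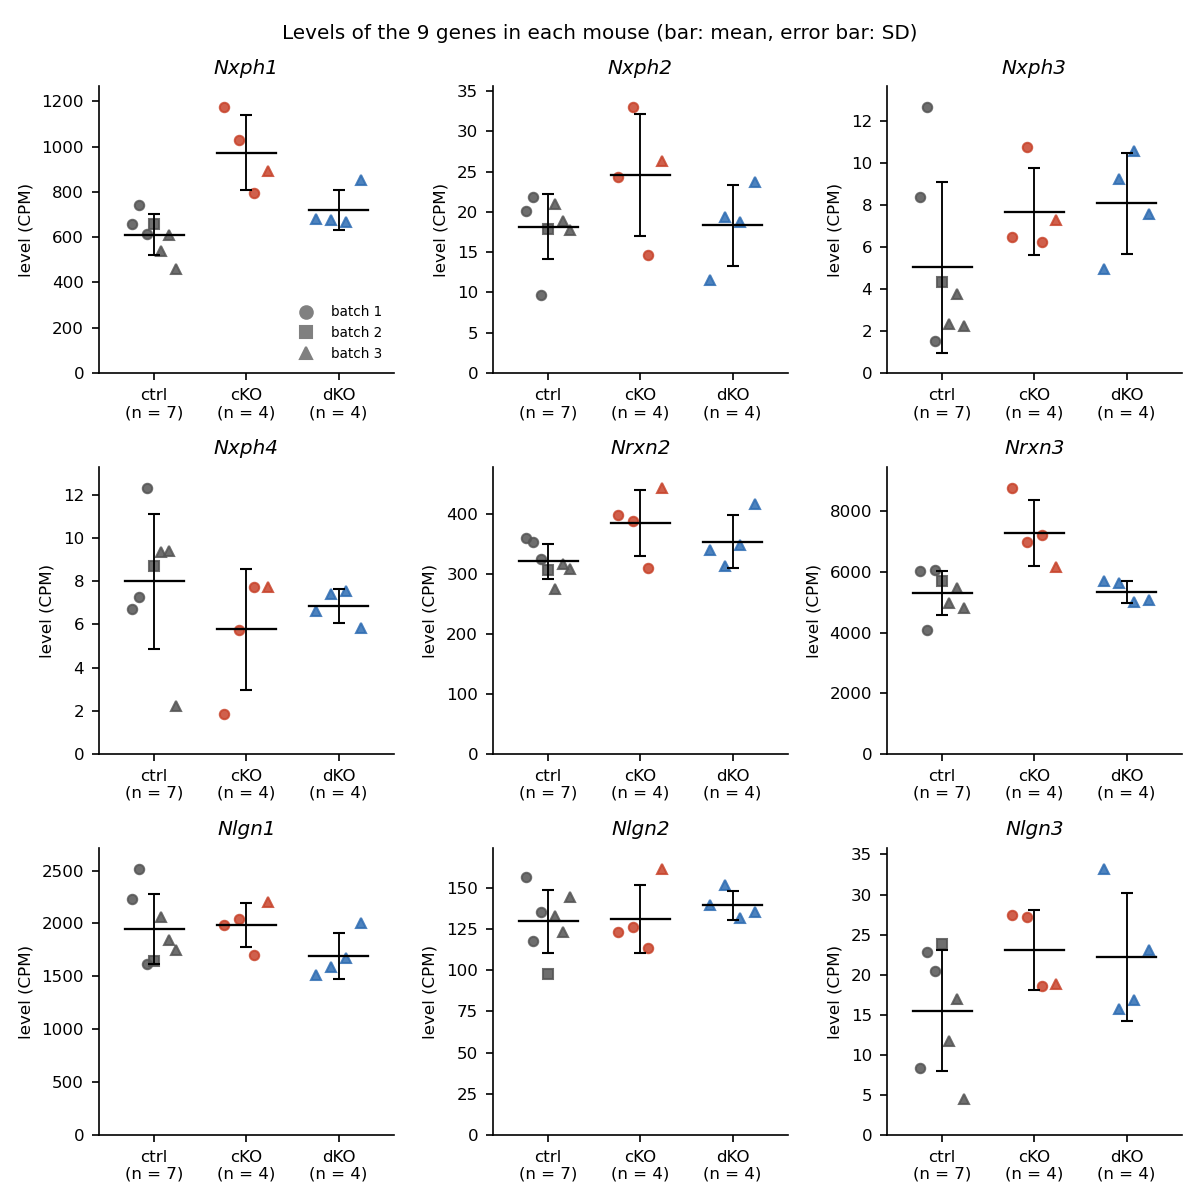
Level of each of the 9 genes in each mouse, in CPM on a linear axis from 0, by group, with the point shape giving the batch, the horizontal bar the mean and the error bar the SD. For *Nxph1* and *Nrxn3* the 4 cKO mice lie above all 7 ctrl mice, while the groups overlap for the other 7 genes.

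Comparing cKO with ctrl, 1 of the 9 genes had an FDR below 0.05, and it was *Nxph1*, by which the set was chosen. Its call and the order of its mice follow from that choice and are not evidence. Of all 51912 genes, 0.16% had such an FDR, with 30 higher and 53 lower in cKO (23 and 73 with RLE size factors). *Nxph1* and *Nrxn3* were also the 2 genes of the 9 whose lowest cKO mouse exceeded the highest ctrl mouse. Of the 14328 genes with a mean of at least 1 CPM, 0.845% had that order.

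The other neurexophilins were scarce and were not called in cKO versus ctrl. *Nxph2* was in ctrl between 9.73 and 21.8 CPM with a median of 18.8 CPM. In cKO mice 5, 7, S2 and F3 it was at 24.4, 33.0, 14.7 and 26.4 CPM, so 3 of the 4 stood above all ctrl mice and S2 was below the ctrl median. The log fold change was 0.43 (standard error 0.24, FDR of 1). *Nxph3*, known from neurons of the deepest cortical layer and from Cajal-Retzius cells, had 1 to 40 counts per ctrl mouse. It was in ctrl between 1.54 and 12.7 CPM with a median of 3.76 CPM, and in cKO at 6.5, 10.8, 6.26 and 7.27 CPM. The estimate of 0.40 (log2, standard error 0.39, FDR of 1) has a 95% interval from −0.37 to 1.17. *Nxph4* had the opposite sign, at −0.55 (standard error 0.35, FDR of 1). It was in ctrl between 2.22 and 12.3 CPM with a median of 8.69 CPM, and in cKO at 1.83, 5.75, 7.74 and 7.73 CPM. The 95% intervals of *Nxph2*, from −0.042 to 0.91, and of *Nxph4*, from −1.24 to 0.13, contain 0 as that of *Nxph3* does, so a change in these genes was not detectable at this depth.

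Within the family *Nxph1* supplied most counts. Its share of the counts of *Nxph1* to *Nxph4* was 95.2 ± 0.652% in ctrl, 96.2 ± 0.875% in cKO and 95.6 ± 0.893% in dKO (mean ± SD). The difference between dKO and ctrl, of 0.40 percentage points, was smaller than the SD of either group. A two-sided exact permutation of mice gave p = 0.388 (n = 4 and 7). It does not account for batch, and its ctrl mice are those by which *Nxph1* was chosen. Summed over the family, ctrl mice ranged from 482 to 782 CPM, cKO mice from 825 to 1206 CPM and dKO mice from 703 to 888 CPM.

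*Nrxn3*, the neurexin with the most counts, was higher in every cKO mouse than in any ctrl mouse, but it did not reach an FDR below 0.05 in the likelihood ratio test. In ctrl it was between 4082 (mouse 6) and 6048 CPM (mouse S3) with a median of 5488 CPM. In cKO mice 5, 7, S2 and F3 it was at 8758, 6984, 7205 and 6175 CPM. The gap between the highest ctrl mouse and cKO F3 was small beside the spread within either group. In edgeR's likelihood ratio test the log fold change was 0.44 (standard error 0.14, FDR = 0.279), a fold of 1.36 with a 95% interval of 1.12 to 1.64. With edgeR's quasi-likelihood F test, which calls 0.678% of all genes, *Nrxn3* had the same log fold change and an FDR of 0.00115. With DESeq2, which calls 0.536% of the genes it tested, the log fold change was 0.39 (FDR = 0.101). Within batch 1 it was 0.52 (FDR of 1 from edgeR), and with litter as a covariate 0.49 (FDR = 0.0703 from edgeR).

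*Nrxn2*, the other neurexin of the set, overlapped between the groups. In ctrl it was between 275 and 361 CPM with a median of 318 CPM, and in cKO mice 5, 7, S2 and F3 at 399.8, 389.6, 311 and 444 CPM. Mice 5, 7 and F3 stood above all ctrl mice, and S2 was below the ctrl median. The fitted log fold change was 0.24 (standard error 0.12, FDR of 1) with a 95% interval of 0.0035 to 0.48. No difference between it and *Nxph1* or *Nrxn3* was tested. It was 0.092 within batch 1 and 0.061 with litter as a covariate (FDR of 1 in both). Without use of strand, reads of *Nrxn2* could not be told from those of genes on its opposite strand, of which *Gm14964* had 267 counts over all libraries.

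The neuroligins showed no call. *Nlgn1*, known from excitatory synapses, was in ctrl between 1612 and 2512 CPM with a median of 1844 CPM, and in cKO mice 5, 7, S2 and F3 at 1982, 2041, 1704 and 2206 CPM. All cKO mice lay within the ctrl range. Its log fold change was 0.0091 (standard error 0.14, FDR of 1), with a 95% interval of −0.26 to 0.28, and the sign turned in several alternative fits. *Nlgn2*, known from inhibitory synapses, was in ctrl between 97.7 and 156 CPM with a median of 133 CPM, and in cKO at 123, 126, 114 and 161 CPM. This was 0.025 on the log2 scale (standard error 0.14, FDR of 1) with an interval of −0.24 to 0.29. *Nlgn3*, found at both kinds of synapse, was in ctrl between 4.45 and 23.9 CPM with a median of 16.9 CPM, and in cKO at 27.4, 27.3, 18.5 and 18.9 CPM. Its log fold change was 0.33 (standard error 0.23, FDR of 1), and it had only 2 counts in the ctrl mouse with the fewest. *Gm21986* overlaps *Nlgn3* on the same strand over 22181 bases, so reads there could be split between the genes or left uncounted.

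**Figure D2:**
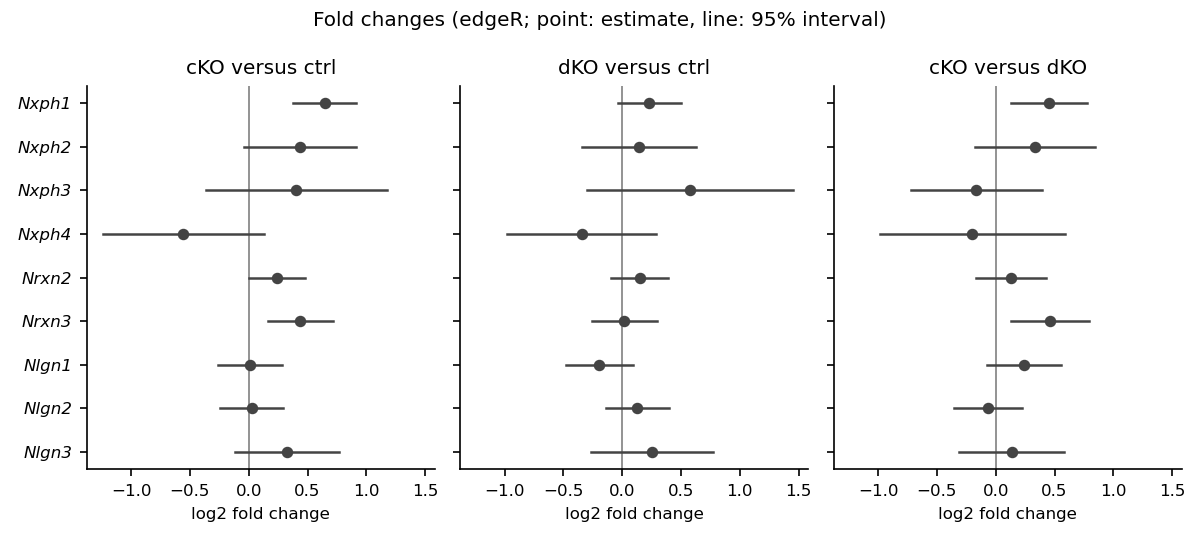
Log2 fold change of each gene in the 3 comparisons (x axis), with the point as the edgeR estimate and the line as its 95% interval. In cKO versus ctrl the interval of *Nxph1* runs from 0.38 to 0.92 and that of *Nrxn3* from 0.16 to 0.72, and those of the 3 neuroligins cross 0.

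In the dKO mice, *Trp53* as well as *Knl1* was deleted in cells of the *hGFAP-Cre* lineage. Their mean levels of *Nxph1* and *Nrxn3* were 718 ± 88.6 and 5350.0 ± 363 CPM, beside 973 ± 164 and 7281 ± 1080.1 CPM in cKO (mean ± SD, n = 4 each). *Nxph1* was in dKO mice T2, T8, F1 and F7 at 679.6, 675, 667 and 851 CPM. Of these, F7 was above all 7 ctrl mice and the other 3 lay within the ctrl range. The log fold change in dKO versus ctrl was 0.23 (standard error 0.14, FDR of 1), and the comparison shares its ctrl mice with the one by which *Nxph1* was chosen. Against ctrl of batch 3 alone, all 4 dKO mice were higher, with a log fold change of 0.40 (FDR of 1), an order that 5.6% of the genes with at least 1 CPM had. With batch as a covariate it was 0.42, and without mouse F7 it was 0.14. *Nrxn3* was in dKO at 5699, 5624, 4999 and 5078 CPM, within the ctrl range in all 4 mice. Its log fold change in dKO versus ctrl was 0.018 (standard error 0.14, FDR of 1). None of the 9 genes was at an FDR below 0.05 in dKO versus ctrl, where 0.0501% of all genes were. At an unadjusted p below 0.05 there were 0 of the 9 in the likelihood ratio test, against 6.05% of the genes with at least 1 CPM. The quasi-likelihood F test, which called 0.218% of genes, and DESeq2, which called 0.0313%, also called 0 at an FDR below 0.05. Within batch 3 alone, the likelihood ratio test gave an unadjusted p of 0.0195 for *Nxph1*, 0.0219 for *Nxph3* and 0.0495 for *Nlgn3*. The other members were not below 0.05 there, 0 of the 9 were called, and 1587 of all 51912 genes had an unadjusted p below 0.05.

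The remaining 7 genes in dKO gave no call either. *Nlgn1* was in dKO mice T2, T8, F1 and F7 at 1513, 1590.2, 1670 and 2002 CPM, with T2 and T8 below all ctrl mice. This was −0.19 on the log2 scale (standard error 0.14, FDR of 1). *Nrxn2* was at 339.8, 313, 349 and 417 CPM (log fold change of 0.15, standard error 0.12, FDR of 1). *Nlgn2* was at 139, 152, 131 and 135 CPM, inside the ctrl range. The 3 scarce neurexophilins and *Nlgn3* had log fold changes between −0.35 for *Nxph4* and 0.58 for *Nxph3*, each with an interval across 0. Against ctrl of batch 3 alone, *Nxph3* was at 1.45 and *Nlgn3* at 0.76. There ctrl mice T3, T4 and T5 had 1, 4 and 1 counts of *Nxph3* and 5, 18 and 2 of *Nlgn3*.

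In cKO versus dKO, *Nrxn3* was higher in all 4 cKO mice than in any dKO mouse, an order that 2.55% of the genes with at least 1 CPM had. In edgeR's likelihood ratio test the estimate was 0.46 on the log2 scale (standard error 0.17, FDR = 0.627). For *Nxph1* it was 0.45 (standard error 0.16, FDR = 0.620 from edgeR), with cKO S2 at 796 CPM below dKO F7 at 851 CPM. This comparison shares its cKO mice with the one by which *Nxph1* was chosen. None of the 9 was at an FDR below 0.05, against 0.052% of all genes. At an unadjusted p below 0.05 there were 2, against 5.18% of the genes with at least 1 CPM. The quasi-likelihood F test, which called 0.354% of genes, called the same 2, *Nxph1* (FDR = 0.0473) and *Nrxn3* (FDR = 0.0214), and DESeq2, at 0.0267% of genes, called 0. All dKO mice and only 1 of the cKO mice, F3, were in batch 3. Within that batch the log fold change was 0.33 for *Nxph1* and 0.23 for *Nrxn3* (FDR of 1 in both, edgeR), where F3 alone stands for cKO and is assumed to vary like the other mice.

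Ratios within a mouse do not depend on how libraries are scaled. *Nxph1* counts were 31.8 ± 5.44% of *Nlgn1* counts in ctrl, 49.2 ± 7.82% in cKO and 42.4 ± 2.04% in dKO, and the ctrl mice, at most at 39.9%, lay just below the lowest cKO mouse at 40.5%. That order of cKO and ctrl mice is not independent of the choice of *Nxph1* by its rise in these same mice. Of the dKO mice, 3 were above all ctrl mice in this ratio, and F1 was level with the highest ctrl mouse at 39.9%. Against *Nrxn3* the ratio overlapped between groups, at 11.8 ± 2.89% in ctrl, 13.4 ± 1.68% in cKO and 13.5 ± 2.26% in dKO, and ctrl mouse 6 was the highest of all at 18.1%. *Nrxn3* per *Nlgn1* was 2.81 ± 0.697 in ctrl, 3.72 ± 0.749 in cKO and 3.21 ± 0.552 in dKO. Together, the 9 genes took 0.861 ± 0.0688% of all counts in ctrl, 1.02 ± 0.114% in cKO and 0.842 ± 0.0803% in dKO, most of it from *Nrxn3* and *Nlgn1*.

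**Figure D3:**
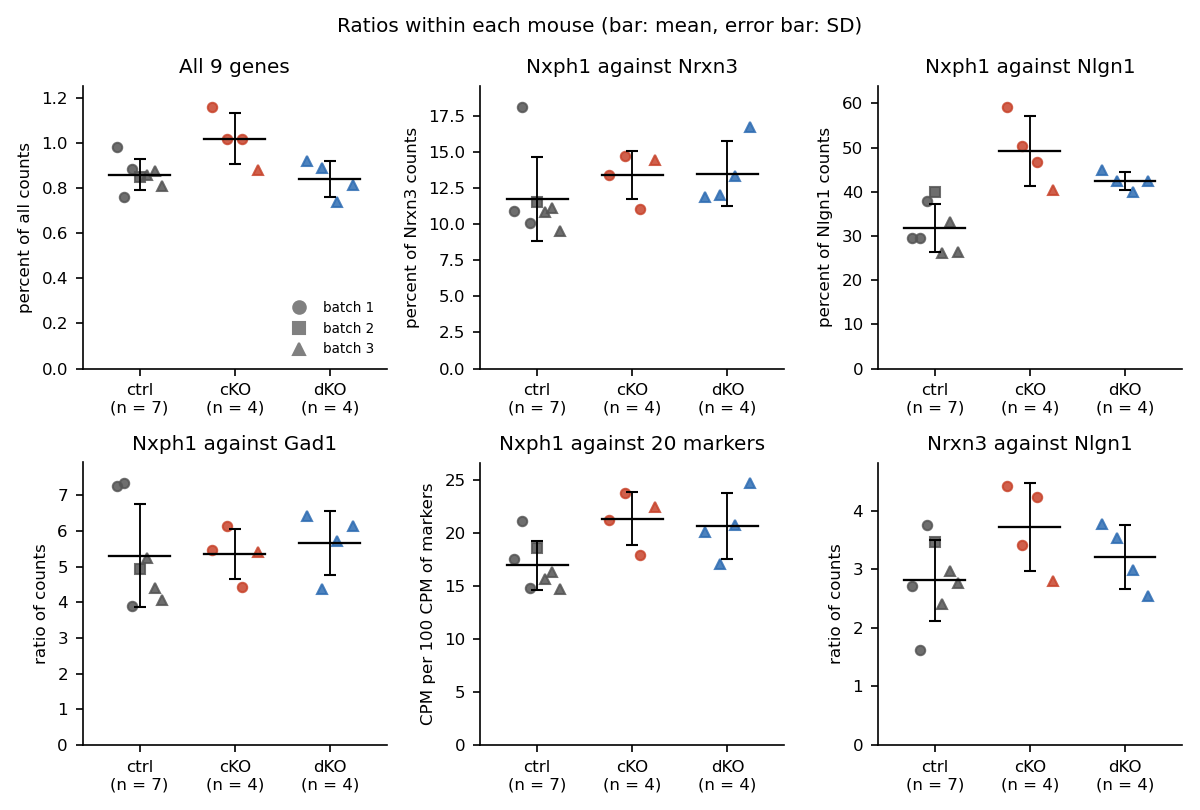
Ratios in each mouse, on linear axes from 0, by group, with the point shape giving the batch, the bar the mean and the error bar the SD. The ratio of *Nxph1* to *Nlgn1* is higher in the 4 cKO mice and in 3 of the 4 dKO mice than in the 7 ctrl mice, while those of *Nxph1* to *Nrxn3* and to *Gad1* overlap in all groups. *Nxph1* was chosen by its rise in these cKO mice over these ctrl mice, so their order is a description.

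Of 20 markers of inhibitory interneurons, 17 had a positive log fold change in cKO versus ctrl and 2 rose, the GABA-synthesizing enzyme gene *Gad1* (119.6 ± 24.1 CPM in ctrl, 182 ± 22.9 CPM in cKO, FDR = 0.0408) and the neuregulin receptor gene *Erbb4* (1723 ± 199 CPM in ctrl, 2581 ± 579 CPM in cKO, FDR = 0.0361). The marker lists were drawn up with earlier results of these mice known, so these calls are not independent evidence. Among the 14328 genes with at least 1 CPM, 0.544% were called, 27 higher and 51 lower, and 55.4% had a positive log fold change. An unadjusted p below 0.05 was found for 11 of the 20 markers and for 10.5% of the genes with at least 1 CPM. The median log fold change of the 20 was 0.39, beside 0.029 over the genes with at least 1 CPM and 0 over all genes tested. Their summed level ranged from 3132 to 4123 CPM in ctrl, from 3979 to 5534 CPM in cKO and from 3203 to 3963 CPM in dKO, and none was without a count. *Gad2* had a log fold change of 0.35 (FDR = 0.852), the vesicular GABA transporter gene *Slc32a1* 0.61 (FDR = 0.382), and the homeobox genes *Dlx1*, *Dlx2* and *Dlx5* 0.43, 0.18 and 0.67 (FDR of 0.882, 1 and 0.789). *Lhx6*, a homeobox gene of interneurons from the medial ganglionic eminence, had 0.33 (FDR = 0.876), and the peptide gene *Sst* 0.83 (FDR = 0.529). The 3 markers with a negative value, named after their values were seen, were *Sox6* at −0.30, *Sp8* at −0.21 and *Cxcr4* at −0.029 (FDR of 1 in each).

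Scaled to these markers, *Nxph1* overlapped between the groups. *Nxph1* counts per *Gad1* count were 5.30 ± 1.44 in ctrl, 5.36 ± 0.697 in cKO and 5.66 ± 0.899 in dKO. Per 100 CPM of the 20 summed markers, *Nxph1* was at 17.0 ± 2.32 CPM in ctrl, 21.3 ± 2.5 in cKO and 20.7 ± 3.14 in dKO, with 3 of 4 cKO mice and 1 of 4 dKO mice above all ctrl mice. *Erbb4* makes up much of the sum, and without it the values were 33.1 ± 7.36, 49.5 ± 10.01 and 42.1 ± 8.58 CPM per 100 CPM. The part of the interneuron markers in the rise of *Nxph1* was not tested.

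Among the other marker lists, 2 of 8 intermediate progenitor genes fell in cKO, *Eomes* among them (log fold change of −1.13), with summed levels of 450 to 551 CPM in ctrl and 344 to 493.4 CPM in cKO. Of 10 microglia genes 2 rose in the likelihood ratio test and 0 with DESeq2, and 1 gene each fell among 11 radial glia and 6 subplate genes. An unadjusted p below 0.05 was found for 3 intermediate progenitor, 3 microglia, 6 radial glia and 1 subplate genes. The median log fold change was −0.39 over the 10 radial glia genes with at least 1 CPM. Of the radial glia genes 0 had a positive value, and of the subplate genes 3 had one. The likelihood ratio test called none of 6 ganglionic eminence progenitor, 14 excitatory neuron, 8 Cajal-Retzius, 8 endothelial and pericyte and 5 oligodendrocyte precursor genes. Of these, 1, 3, 1, 1 and 1 had an unadjusted p below 0.05, against 10.5% of the genes with at least 1 CPM. The quasi-likelihood F test and DESeq2 each called 2 of the excitatory neuron genes and 0 of the other 4 lists. Named after their values were seen, these were *Slc17a6*, lower in cKO with both tools, *Mef2c*, higher with the F test, and *Nfib*, lower with DESeq2. In the likelihood ratio test their log fold changes were −0.50, 0.49 and −0.32. The summed level of the excitatory neuron genes was between 7948 and 9537 CPM in ctrl and 8167 and 9072 CPM in cKO. The defining markers *Neurod1* and *Sox2* were listed at 0 in every mouse. The paper stained SOX2-positive progenitors in E15.5 cortex, so the 0 of *Sox2* cannot be read as absence of the gene product. The cause of these values was not tested. For the 20 interneuron markers, 0 were called in dKO versus ctrl by any of the 3 tools, with 2 at an unadjusted p below 0.05 and a median log fold change of 0.10. In cKO versus dKO the likelihood ratio test and DESeq2 called 0, with 5 at an unadjusted p below 0.05 in the former, and the quasi-likelihood F test called *Gad1* and *Erbb4*. Of the genes with at least 1 CPM, 6.05% in dKO versus ctrl and 5.18% in cKO versus dKO had an unadjusted p below 0.05.

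The wider set of binding partners was compared in the same way. In cKO versus ctrl, 10.5% of the genes with at least 1 CPM had an unadjusted p below 0.05. Of those among them of at least 300 kb, 36.7% did, and the partners were not split by length. Of 18 extracellular partners of neurexins 16 were matched, and 0 had an FDR below 0.05 when cKO was compared with ctrl, with 3 at an unadjusted p below 0.05. Their median log fold change was 0.12 over the 15 with at least 1 CPM. By level they are led by the latrophilin gene *Adgrl3* (1316 ± 185 CPM in ctrl, 1785 ± 221 CPM in cKO, log fold change of 0.42, FDR = 0.250), the calsyntenin gene *Clstn2* (0.19, FDR of 1) and *Lrrtm4* (0.24, FDR of 1), a postsynaptic leucine-rich repeat protein gene. Of 7 cytoplasmic partners, 0 were called and 3 were at an unadjusted p below 0.05, with a median of 0.27 over 6. The scaffold gene *Cask* had a log fold change of 0.19 (FDR of 1), *Apba2* 0.063 (FDR of 1) and *Apba1* 0.39 (FDR = 0.332). Of 8 neuroligin partners, 0 were called and 6 were at an unadjusted p below 0.05, with a median of 0.33. Of these 6, 5 had a positive value and *Mdga1*, named after its value was seen, a negative one at −0.39 (FDR = 0.430). The scaffold genes *Magi2* and *Dlgap1* were at 0.28 (FDR = 0.852) and 0.49 (FDR = 0.318), and *Mdga2*, whose protein blocks neuroligin from binding neurexin, at 0.37 (FDR = 0.852). The quasi-likelihood F test called 2, 1 and 3 genes of the 3 lists, all higher in cKO, and DESeq2 called 0, 0 and 1. In dKO versus ctrl and cKO versus dKO none of the 3 tools called any of these genes. At an unadjusted p below 0.05 in the likelihood ratio test there were 1, 0 and 1 genes in dKO versus ctrl and 2, 1 and 1 in cKO versus dKO. The shares over the genes with at least 1 CPM were 6.05% and 5.18%.

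**Figure D4:**
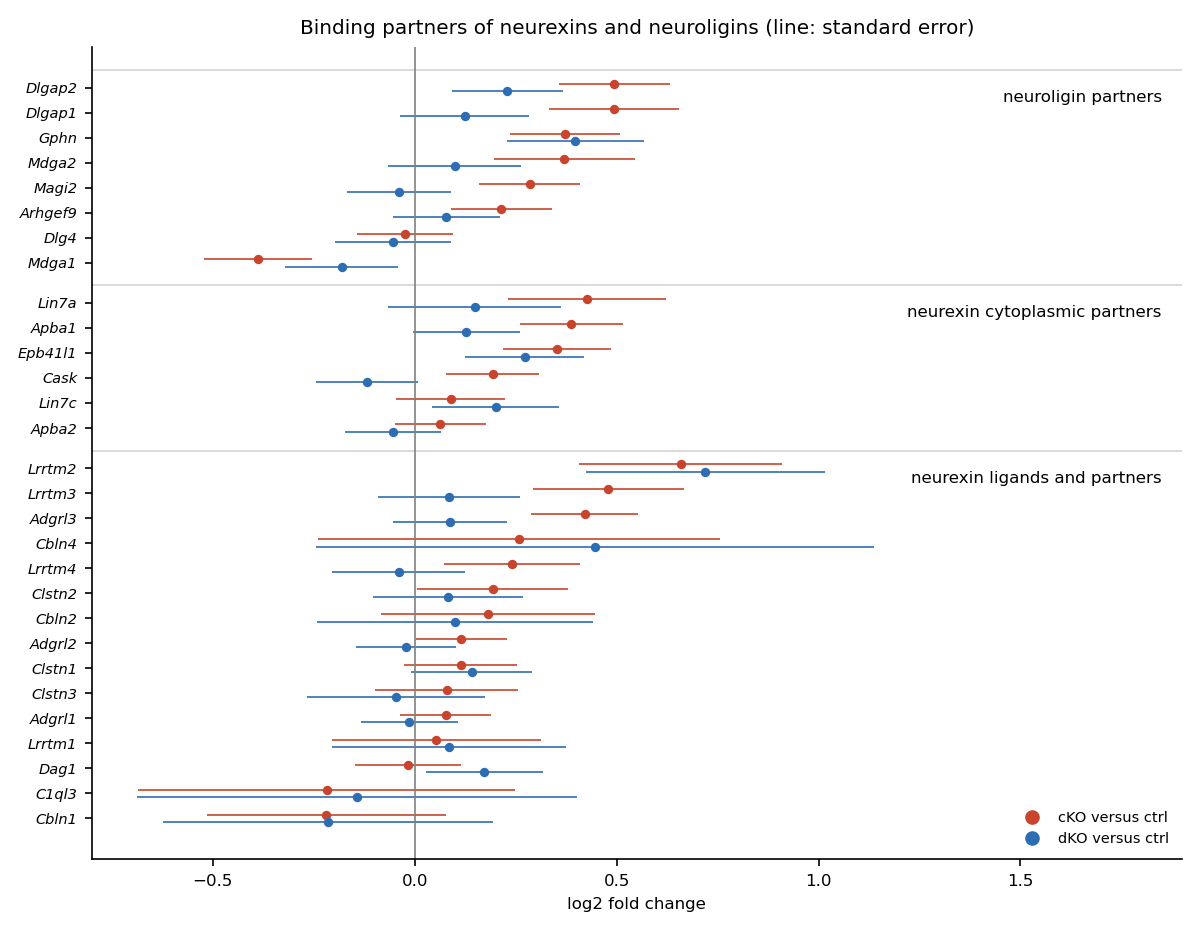
Log2 fold change (x axis) of the partner genes with a mean of at least 1 CPM in cKO versus ctrl (red) and dKO versus ctrl (blue), with the line as the standard error. No gene was at an FDR below 0.05 in the likelihood ratio test, and medians in cKO were 0.12, 0.27 and 0.33 in the 3 lists from bottom to top.

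Long genes were described as a group because 3 of the 9 genes are long. Over the 594 genes of at least 300 kb and 1 CPM, a length chosen after seeing the data, the median log fold change in cKO versus ctrl was 0.13, beside 0.029 over all genes with at least 1 CPM. Of these long genes 17, or 2.86%, were called, 8 of them higher and 9 lower in cKO. An unadjusted p below 0.05 was found for 218 of them, or 36.7%, beside 10.5% of all genes with at least 1 CPM. In dKO versus ctrl the median of the long genes was −0.0038, and in cKO versus dKO 0.16. *Nxph1*, *Nrxn3* and *Nlgn1* are all of this length, and *Nlgn1* was at 0.0091. The part of gene length in the values of *Nxph1* and *Nrxn3* was not tested.

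Over the 15 mice, Pearson's r of log2 CPM (prior count of 2) between *Nxph1* and *Nrxn3* was 0.66, and after removing group means it was 0.16. With *Nrxn2*, *Nxph1* had an r of 0.76 over 15 mice and 0.63 after removing group means. In the plot of *Nxph1* against the neurexins, cKO S2 is low in *Nxph1* and *Nrxn2* but not in *Nrxn3*, and ctrl mouse 6 is high in *Nxph1* and lowest in *Nrxn3*. Among 7077 genes with a mean of at least 20 CPM, *Nrxn2* ranked 227th and *Nrxn3* 610th by likeness to *Nxph1*, and *Nxph1* ranked 57th by likeness to *Nrxn3*. The 5 most alike were *Tmem178b* (r = 0.97, 0.93 without group means), *Celf4* (0.95, 0.86), *Esyt2* (0.95, 0.90), *Zfp704* (0.93, 0.85) and *Srgap2* (0.93, 0.84). For *Nrxn3* they were *Sox2ot* (0.89, 0.75), *Stk33* (0.86, 0.80), *Dclk2* (0.85, 0.90), *Cdk14* (0.84, 0.69) and *Gad2* (0.84, 0.80). These points share batches, litters and depth, and the correlations describe them without a test.

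**Figure D5:**
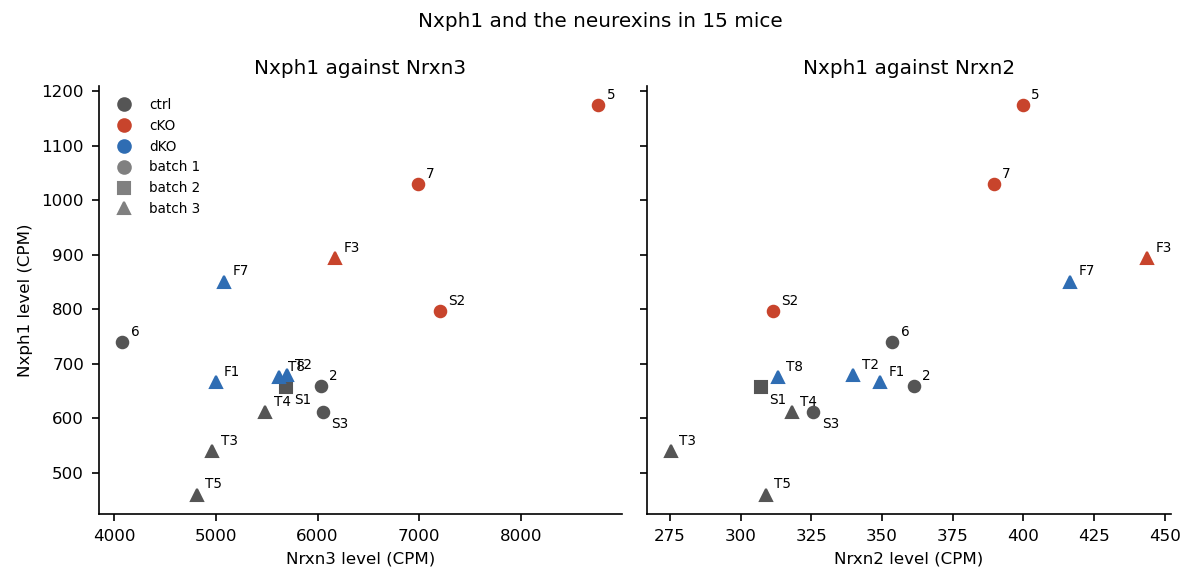
Level of *Nxph1* (y axis, CPM) against that of *Nrxn3* (left) and *Nrxn2* (right) in each of the 15 mice, named beside the points, with colour for the group and shape for the batch. The 4 cKO mice are highest in *Nrxn3*, and cKO S2 lies among ctrl and dKO mice in *Nrxn2*.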

How the data were processed

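RNA-seq counts of the E15.5 cortex of 15 mice, in 16 libraries, were used. Per the submitters' notes, the authors used cutadapt 1.13 for trimming, STAR 2.5.2a for alignment to GRCm38, UMI-tools 0.5.3 for collapsing Click-seq UMIs and HTSeq 0.6.1p1 for counting, and they deposited whole-number counts per gene without normalization. The annotation release, the feature counted and the use of strand are not given in the sources used here. Each count is therefore of deduplicated reads, and long genes with intronic reads can have high counts.

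The 9 genes and all lists were chosen with earlier results of these data known. Members, partners by FDR or else the 3 highest in CPM, and the interneuron markers and *Eomes* are named. Symbols, coordinates and lengths came from GENCODE M21, which matched 51633 of 51912 identifiers. Libraries S2 and S2b were summed. Each comparison was fitted on its own groups with edgeR 4.0.16 (TMM, estimateDisp, glmFit, glmLRT) in R 4.3.3, over all listed genes, with Benjamini–Hochberg FDR. Standard errors came from the Fisher information of the fit. Intervals are the estimate ± 1.96 standard errors. Alternatives were the quasi-likelihood F test, DESeq2 1.42.0, RLE size factors, filterByExpr, 3 groups in one fit, batch, sex or litter as a covariate, subsets of mice, and each mouse left out in turn.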

Additional observations from a re-analysis of the deposited data

Results flagged for a closer look

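Of 30 groups of values tested for a sample far from the others (Dixon's test), 2 were flagged, and chance flags about 5% of groups. *Nxph1* in dKO mouse F7 was at 851 CPM, and the rest of the dKO mice spanned 667 to 679.6 CPM. *Nxph2* in ctrl mouse S3 was at 9.73 CPM, from 19 counts, and the next lowest of the 7 was at 17.8 CPM.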

How the results depend on the processing

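Of 565 alternative values of the log fold changes of the 9 genes, 520 kept their direction and side of the threshold. *Nxph1* in cKO versus ctrl, at 0.65, was no longer called within batch 1 (0.58) and with wild-type ctrl only (0.60), and without each mouse in turn it was between 0.55 and 0.73, the call being lost without cKO mouse 5 or 7. In these fits 0 of the 9 genes were called. Because *Nxph1* was chosen on this comparison, whether its call is kept or lost is a description only. The quasi-likelihood F test called 2 in cKO versus ctrl and 2 in cKO versus dKO, where *Nxph1* was at 0.45 and *Nrxn3* at 0.46. *Nxph1* per 100 CPM of interneuron markers differed from ctrl by 4.36 in cKO and 3.69 in dKO, and by 16.4 and 9.02 without *Erbb4*.

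Values near 0 changed sign. In cKO versus ctrl, *Nlgn1* and *Nlgn2* were at −0.045 and −0.027 with DESeq2, −0.045 and −0.025 with RLE, −0.049 and −0.030 with filterByExpr, −0.034 and −0.016 with batch, −0.13 and −0.071 with litter and −0.14 and −0.13 within batch 1. *Nlgn1* was at −0.010 with wild-type ctrl only. Leaving out 1 mouse gave −0.046 to 0.088 for *Nlgn1* and −0.085 to 0.093 for *Nlgn2*. In dKO versus ctrl, *Nxph2* was at −0.22 with litter and −0.020 to 0.25 without 1 mouse, and *Nrxn3* at −0.0037 with wild-type ctrl only and −0.038 to 0.059 without 1 mouse. In cKO versus dKO, *Nxph4*, *Nlgn2* and *Nlgn3* were at 0.21, 0.24 and −0.14 with batch and within batch 3, and at 0.24, 0.29 and −0.090 with litter. Without 1 mouse, *Nxph4* was at −0.43 to 0.12 and *Nlgn3* at −0.0069 to 0.25. The cause was not tested.

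The number of all genes called in cKO versus ctrl, 83, was 352 with the quasi-likelihood F test, 138 with DESeq2 and with filterByExpr, 49 with 3 groups in one fit, 13 within batch 1 and 16 with wild-type ctrl only. In dKO versus ctrl it was 26, and 113, 8, 14 and 14 with the first 4 of these, 17 with batch and with wild-type ctrl only, and 4 with litter. In cKO versus dKO it was 27, and 184, 7, 14 and 14, with 3 for batch, 44 for sex and 1 within batch 3. Without 1 mouse it ran from 17 to 373, 17 to 59 and 6 to 179, with the highest counts without cKO S2, dKO T8 and dKO F1 and the lowest without cKO 5, dKO F7 and cKO 7. The labels give the mice no replicate numbers shared between groups, and comparisons within litters were made with litter as a covariate. Shallow ctrl mice limit *Nxph3*, *Nxph4* and *Nlgn3*, with as few as 1 or 2 counts.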
